A study of Mus musculus with 12 samples.

Results

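The genes described here are Cdk1, the kinase that drives entry into mitosis, 4 cyclins of S, G2 and M phase (Ccna2, Ccnb1, Ccnb2 and Ccnf) and 5 enzymes that set the inhibitory phosphorylation of CDK1 (Cdc25a, Cdc25b, Cdc25c, Wee1 and Pkmyt1). The rule names them by Ensembl ID as a functional family and uses no measured value, although earlier results of these data were known when it was written. They are 10 of 22520 gene IDs in the tables, of which 11680 had a read and 6692 were tested. Ribosome footprints, the stretches of mRNA that ribosomes shield from nuclease, were sequenced from the mouse B cell lymphoma line 19PP. The line was established from a Rag2-/-γC-/- mouse reconstituted with bone marrow of Cγ1-Cre; Myc/P110*flSTOP mice, and the cells kept in culture were its sorted subline 19DN, from which the GFP and hCD2 reporters had been removed with Flp, so all groups share this background. The cells carried RPL12 S38D, RPL12 S38A or wild-type (WT) RPL12. RPL12, also called uL11, is a protein at the base of the ribosomal stalk, and the series title names its phosphorylation as the subject. S38D replaces serine 38 by aspartate, which is negatively charged like a phosphate group, and S38A replaces it by alanine, which has no hydroxyl to phosphorylate.

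Each genotype was harvested in 2 states. Cells labelled mitotic had been treated for 8 hr with nocodazole, which depolymerises microtubules, at 100 ng/mL and were then released for 10 min, and the other cells grew asynchronously. Every mitotic library and no asynchronous one is labelled with nocodazole, so cell cycle state and treatment cannot be told apart. Cycloheximide, which stalls elongating ribosomes, was present at harvest. The 6 groups had 2 libraries each. The labels name neither separate cultures nor the number of clones per genotype, so the spread behind each p-value is that of these libraries and may be technical. A library held 258354 to 505500 coding reads, of which 421 to 1024 belonged to the 10 genes. Levels are given in CPM, the reads of a gene scaled to a common library total, and 1 read was worth 2.05 to 3.91 CPM. A fall or rise is therefore relative to the other genes of a library. A change of footprints shared by all genes would not show. Footprints reflect how much of an mRNA there is and how densely ribosomes occupy it, and fewer cells with an mRNA and less of it per cell cannot be told apart in bulk samples. RPL12 itself and B cell markers were not located, because the reference tables hold 0 Ensembl IDs.

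CDK1 is active only when bound to a cyclin. Cyclin A2 serves S phase and G2, the B-type cyclins serve entry into mitosis, and cyclin F, which does not activate a CDK, is the substrate receptor of a ubiquitin ligase. WEE1 in the nucleus and PKMYT1 at membranes phosphorylate CDK1 on neighbouring residues of its ATP loop and hold it inactive, and the CDC25 phosphatases remove these phosphates. Many of these genes are transcribed in G2 through a promoter element called the cell cycle genes homology region, often near CCAAT boxes.

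RefSeq (GRCm38.p6) gave promoters for 6 of the 10 genes, shown here because elements of this kind are known in promoters of genes of this family. Each line gives the 150 bases before the start that the promoter was given with, 5′ to 3′ on the gene's strand. For Cdc25a and Cdc25b this start lies inside the annotated gene, whose first base is chr9:109875518 and chr2:131186436. The stretch shown for Cdc25b lies wholly inside the gene, and that for Cdc25a partly. Capitals mark TTTGAA and TTTAAA, the letters of the homology region, and CCAAT, each searched on both strands, so that CCAAT on the other strand reads ATTGG.
Cdk1 (minus strand, chr10:69352913-69353062): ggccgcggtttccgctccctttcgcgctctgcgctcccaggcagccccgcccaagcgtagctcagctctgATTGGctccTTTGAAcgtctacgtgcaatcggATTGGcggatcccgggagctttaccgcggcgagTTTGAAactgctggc
Ccnb1 (minus strand, chr13:100786487-100786636): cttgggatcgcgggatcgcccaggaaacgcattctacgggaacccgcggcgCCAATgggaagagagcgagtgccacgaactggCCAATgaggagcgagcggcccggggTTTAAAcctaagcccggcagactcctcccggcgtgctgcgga
Ccnb2 (minus strand, chr9:70421555-70421704): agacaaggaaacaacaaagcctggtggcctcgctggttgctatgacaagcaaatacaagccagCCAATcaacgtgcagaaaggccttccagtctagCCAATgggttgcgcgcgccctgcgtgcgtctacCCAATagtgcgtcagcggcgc
Ccnf (minus strand, chr17:24251410-24251559): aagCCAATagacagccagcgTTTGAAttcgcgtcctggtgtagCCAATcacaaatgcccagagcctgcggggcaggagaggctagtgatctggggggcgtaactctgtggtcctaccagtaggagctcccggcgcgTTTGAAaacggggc
Cdc25a (plus strand, chr9:109875429-109875578): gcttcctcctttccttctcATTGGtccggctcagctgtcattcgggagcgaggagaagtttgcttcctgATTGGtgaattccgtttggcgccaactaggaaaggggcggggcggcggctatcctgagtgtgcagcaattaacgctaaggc
Cdc25b (plus strand, chr2:131186798-131186947): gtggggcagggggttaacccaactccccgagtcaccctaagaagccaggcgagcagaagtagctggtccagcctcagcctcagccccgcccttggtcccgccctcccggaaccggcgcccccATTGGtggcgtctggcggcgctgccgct

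In the whole RefSeq window, 250 bases before to 50 after the start, all 6 promoters held CCAAT, against 37.4% of 32851 promoters. TTTGAA or TTTAAA was in 4 of the 6, those of Cdk1, Ccnb1, Ccnb2 and Ccnf, against 27.6% of all promoters. Cdk1 and Ccnf each had TTTGAA close to the start, with its first base at -15 and -14. Ccnb1 had TTTAAA at -42, and Ccnb2 had TTTGAA at -167 and at 5, both outside the stretch shown. The CDC25 promoters shown, those of Cdc25a and Cdc25b, had CCAAT and neither form of the homology region in this window. Their windows are set from starts inside the gene, and windows set from the first base of the gene were not searched. These matches are letters in a window, and none was tested as a site.

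The states were compared first, to see how footprints on these genes changed in mitosis. With the genotypes averaged, 6 of the 10 genes fell in mitotic cells and 0 rose, and the other 4 did not pass the test. Averaged values here are a common change of state fitted to all genotypes together, not the mean of the values by genotype. Cdc25b, Cdc25c, Pkmyt1, Ccnf, Wee1 and Cdk1 fell, which are 2 of the 3 CDC25 phosphatases, both inhibitory kinases, 1 of the 4 cyclins and the kinase itself. The calls of the inhibitory kinases Wee1 and Pkmyt1 were lost under DESeq2, with adjusted p of 0.0736 and 0.0569. Of all 6692 genes tested, 20.0% fell. The median log2 difference of the 10 genes was -0.44, beside -0.015 for all genes tested. All 6 mitotic libraries lay below all 6 asynchronous ones for 2 of the 10 genes, Cdc25b and Cdc25c, and for 4.81% of all genes tested. Within a genotype 2 libraries stand against 2, and these separate easily without a difference. The share of all genes that separate so was not counted. Adjusted p-values here and throughout are from edgeR's quasi-likelihood test with Benjamini-Hochberg adjustment over all genes tested, and adjusted p under 0.05 was the threshold.

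**Figure D1:**
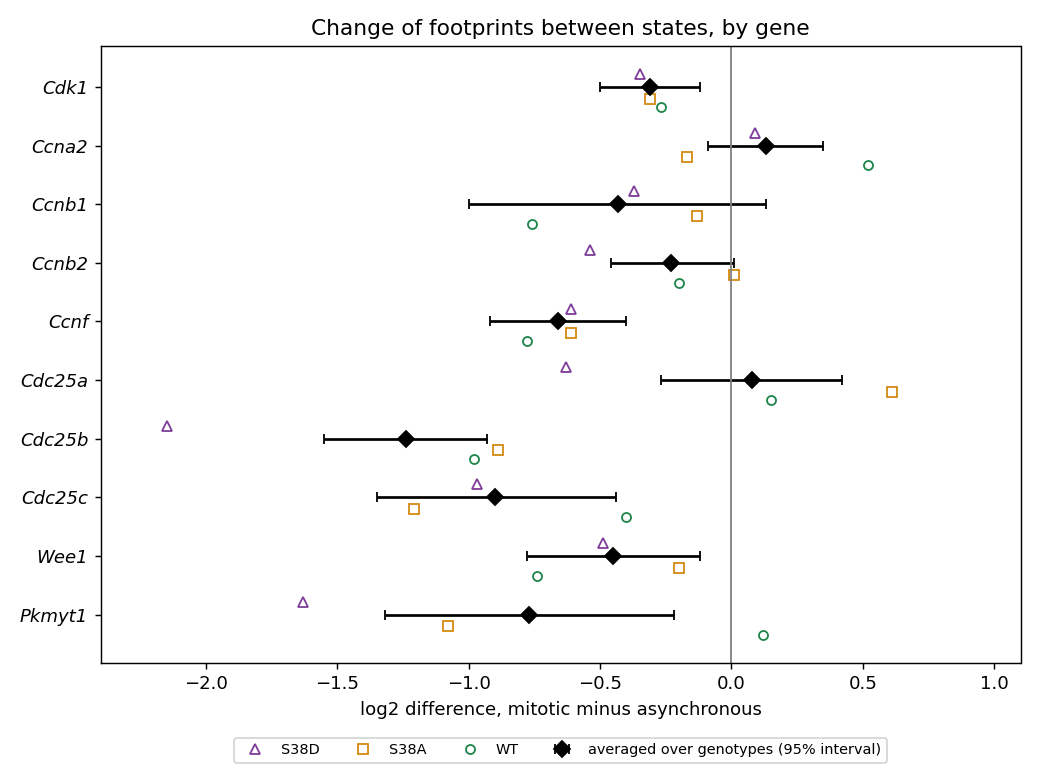
Log2 difference of footprint levels, mitotic minus asynchronous, for the 10 genes (vertical axis). Black diamonds give the value averaged over genotypes with its 95% interval, and open symbols the value in S38D, S38A and WT cells. The intervals of Cdc25b, Cdc25c, Pkmyt1, Ccnf, Wee1 and Cdk1 lie below 0, and the S38D value of Cdc25b, at -2.15, is the lowest symbol drawn.

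Cdc25b (ENSMUSG00000027330.16), the phosphatase known to start CDK1 activation in late G2, changed most. In mitotic cells it had 57.2 and 45.6 CPM in S38D libraries, 124 and 90.1 CPM in S38A libraries and 121 and 111 CPM in WT libraries. In asynchronous cells it had 269 and 186 CPM in S38D, 190 and 210 CPM in S38A and 242 and 216 CPM in WT libraries. The states did not overlap in any genotype, and the S38D mitotic libraries were the lowest of all 12. The averaged log2 difference was -1.24 ± 0.15 (SE, adjusted p = 1.45e-09, edgeR), a 2.37-fold lower level. It fell in each genotype, with log2 differences of -2.15 ± 0.27 in S38D cells (adjusted p = 3.94e-09), -0.89 ± 0.22 in S38A cells (adjusted p = 0.00245) and -0.98 ± 0.23 in WT cells (SE, adjusted p = 0.00121, edgeR). The call in S38A cells was lost without S38A mitotic replicate 2, with an adjusted p of 0.0872 and a log2 difference of -0.68.

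Cdc25c (ENSMUSG00000044201.9), the phosphatase that acts in the feedback loop of mitotic entry, had 11.4 and 35.1 CPM in S38D mitotic, 30.4 and 39.7 CPM in S38A mitotic and 33.5 and 38.9 CPM in WT mitotic libraries. The asynchronous libraries had 41 and 53.2 CPM in S38D, 88.7 and 71.2 CPM in S38A and 46.9 and 49.8 CPM in WT cells. The 2 asynchronous S38A libraries were the highest and 1 S38D mitotic library, with 3 reads, the lowest. The averaged log2 difference was -0.90 ± 0.23 (SE, adjusted p = 0.00113, edgeR), a 1.86-fold lower level. Of the single genotypes S38A passed, with -1.21 ± 0.34 (SE, adjusted p = 0.00682, edgeR), and that call was lost without S38A asynchronous replicate 1, without S38A mitotic replicate 1 and under DESeq2, with adjusted p up to 0.139. The S38D value was -0.97 (adjusted p = 0.109), which was -1.99 without S38D mitotic replicate 2 (adjusted p = 0.0476) and -0.39 without S38D mitotic replicate 1 (adjusted p = 0.673), and the WT value -0.40 (adjusted p = 0.549, edgeR).

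Cdc25a (ENSMUSG00000032477.13), the phosphatase that also acts on CDK2 at the start of S phase, did not share this pattern. It had 72.5 and 66.7 CPM in S38D mitotic libraries, against 115 and 99.7 CPM in S38D asynchronous ones. In S38A cells it had 105 and 154 CPM in mitotic libraries, against 91.3 and 74.4 CPM in asynchronous ones. In WT cells the mitotic libraries had 77.1 and 95.9 CPM, against 86 and 73 CPM in asynchronous ones. The libraries of the 2 states did not overlap in either mutant, and they lay in opposite directions there, while they overlapped in WT cells. Separation of 2 libraries from 2 arises easily without a difference, so it is no support for a pattern of the mutants. None of the 3 changes passed, with log2 differences of -0.63 in S38D (adjusted p = 0.106), 0.61 in S38A (adjusted p = 0.0792) and 0.15 in WT cells (adjusted p = 0.797, edgeR), and the average was 0.08 with a 95% interval of -0.27 to 0.42. The S38A value was 0.87 without S38A mitotic replicate 1 (adjusted p = 0.0384) and 0.34 without S38A mitotic replicate 2 (adjusted p = 0.518).

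The makeup of CDC25 footprints differed between the states. Cdc25a made up 33.3 to 54.2% of the reads of the 3 CDC25 genes in the 6 mitotic libraries (median 42.8%), against 20.9 to 29.4% in the 6 asynchronous ones (median 23.8%), and the states did not overlap. Cdc25b made up 31.0 to 52.2% in mitotic (median 42.9%) and 51.4 to 64.6% in asynchronous libraries (median 61.2%), with the highest mitotic share above the lowest asynchronous one. These shares rest on 37 to 111 CDC25 reads in a mitotic and 96 to 207 in an asynchronous library, and the lowest, 31.0% for Cdc25b in S38D mitotic replicate 2, has an exact 95% binomial interval of 17.6 to 47.1%. Intervals of this kind cover counting error only. The shares are given as a description, with no test, and they are not separate from the falls above. A fall of Cdc25b and Cdc25c raises the share of Cdc25a even where its own level stays the same. The averaged log2 difference of Cdc25a was 0.08.

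**Figure D2:**
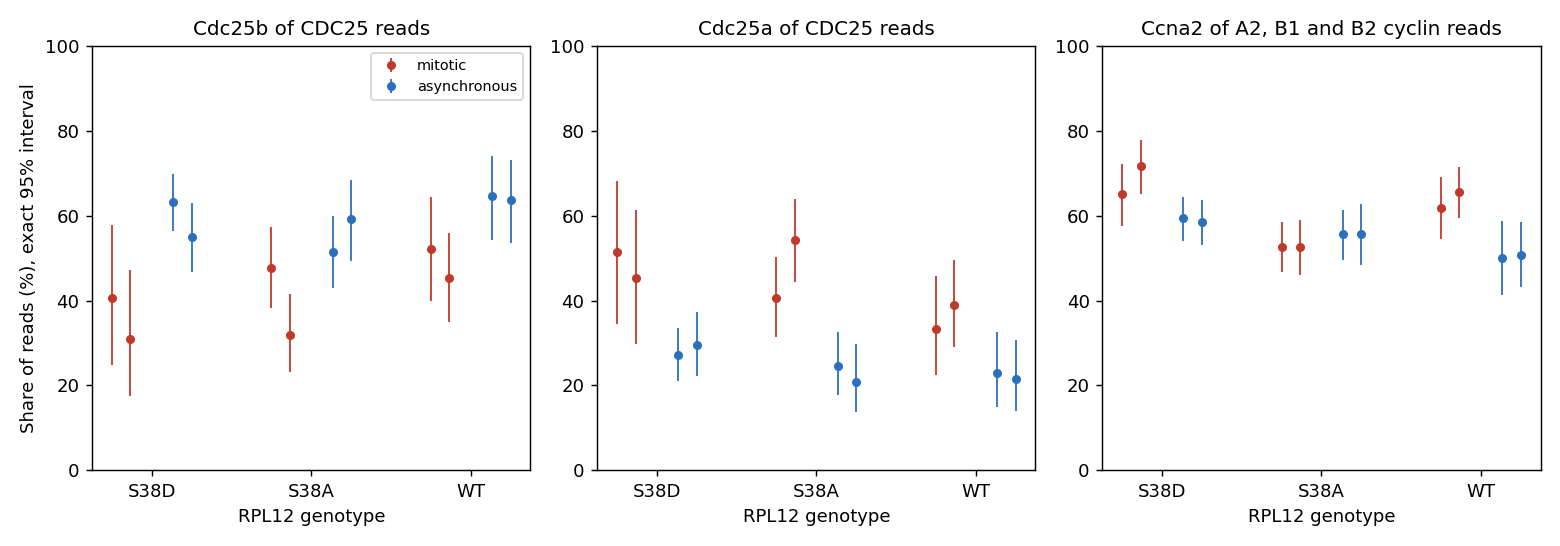
Share of reads (percent, vertical axis) that Cdc25b and Cdc25a took of the 3 CDC25 genes and that Ccna2 took of the cyclin A2, B1 and B2 genes, in each of the 12 libraries by genotype (horizontal axis). Points are libraries with exact 95% binomial intervals, red for mitotic and blue for asynchronous cells. Cdc25a shares in mitotic libraries start at 33.3%, above the highest asynchronous share of 29.4%.

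Both inhibitory kinases fell in the averaged comparison. Wee1 (ENSMUSG00000031016.9) had 68.7 and 52.6 CPM in S38D mitotic, 142 and 82.1 CPM in S38A mitotic and 60.4 and 90.7 CPM in WT mitotic libraries. The asynchronous libraries had 88.2 and 82 CPM in S38D, 151 and 107 CPM in S38A and 137 and 123 CPM in WT cells. The states overlapped in S38A cells, where 1 mitotic library reached 142 CPM. Its averaged log2 difference was -0.45 ± 0.17 (SE, adjusted p = 0.0267, edgeR), and no single genotype passed, with adjusted p of 0.285 in S38D, 0.614 in S38A and 0.0592 in WT cells (edgeR). The WT value was -1.12 without WT mitotic replicate 2 (adjusted p = 0.0489) and -0.51 without WT mitotic replicate 1 (adjusted p = 0.341), and with DESeq2 size factors it was -0.77 (adjusted p = 0.0495).

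Pkmyt1 (ENSMUSG00000023908.7) had few reads, 1 to 23 in a library. Its levels were 22.9 and 3.51 CPM in S38D mitotic, 35 and 18.5 CPM in S38A mitotic and 50.3 and 33.7 CPM in WT mitotic libraries. In asynchronous libraries they were 34.9 and 46.5 CPM in S38D, 44.3 and 74.4 CPM in S38A and 27.4 and 46.4 CPM in WT cells. Mitotic libraries were the lower ones in both mutants, and the states overlapped in WT cells. The averaged log2 difference was -0.77 ± 0.28 (SE, adjusted p = 0.0211, edgeR), and the change in S38D cells was -1.63 ± 0.56 (SE, adjusted p = 0.0272, edgeR). The S38D call rests on 7 mitotic reads in all and was lost without S38D mitotic replicate 2, where the value was -0.81 (adjusted p = 0.457), and without S38D asynchronous replicate 2. In S38A cells the value was -1.08 (adjusted p = 0.0551, edgeR), and it passed with only the compared groups fitted (adjusted p = 0.0343). It was -1.44 without S38A asynchronous replicate 1 (adjusted p = 0.0394), -1.63 without S38A mitotic replicate 1 (adjusted p = 0.0554), -0.69 without S38A asynchronous replicate 2 (adjusted p = 0.423) and -0.71 without S38A mitotic replicate 2 (adjusted p = 0.354). The averaged call of Wee1 was lost under DESeq2 and without WT asynchronous replicate 1, S38A asynchronous replicate 1, WT mitotic replicate 1, S38A mitotic replicate 2 or S38D mitotic replicate 2, and that of Pkmyt1 under DESeq2 and without S38A asynchronous replicate 2, S38D asynchronous replicate 2, S38A mitotic replicate 2 or S38D mitotic replicate 2, with adjusted p up to 0.0956 for Wee1 and 0.0955 for Pkmyt1.

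Cdk1 (ENSMUSG00000019942.13), with 121 to 318 reads in a library, showed a smaller and more even fall. It had 542 and 505 CPM in S38D mitotic, 525 and 509 CPM in S38A mitotic and 406 and 451 CPM in WT mitotic libraries. The asynchronous libraries had 628 and 704 CPM in S38D, 694 and 589 CPM in S38A and 539 and 501 CPM in WT cells. Mitotic libraries were below asynchronous ones within each genotype, although WT asynchronous levels were close to those of the mitotic mutants. The averaged log2 difference was -0.31 ± 0.10 (SE, adjusted p = 0.00670, edgeR), a 1.24-fold lower level. The values by genotype were -0.35 in S38D, -0.31 in S38A and -0.27 in WT cells, and none of these passed (adjusted p = 0.0829, 0.123 and 0.240, edgeR).

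**Figure D3:**
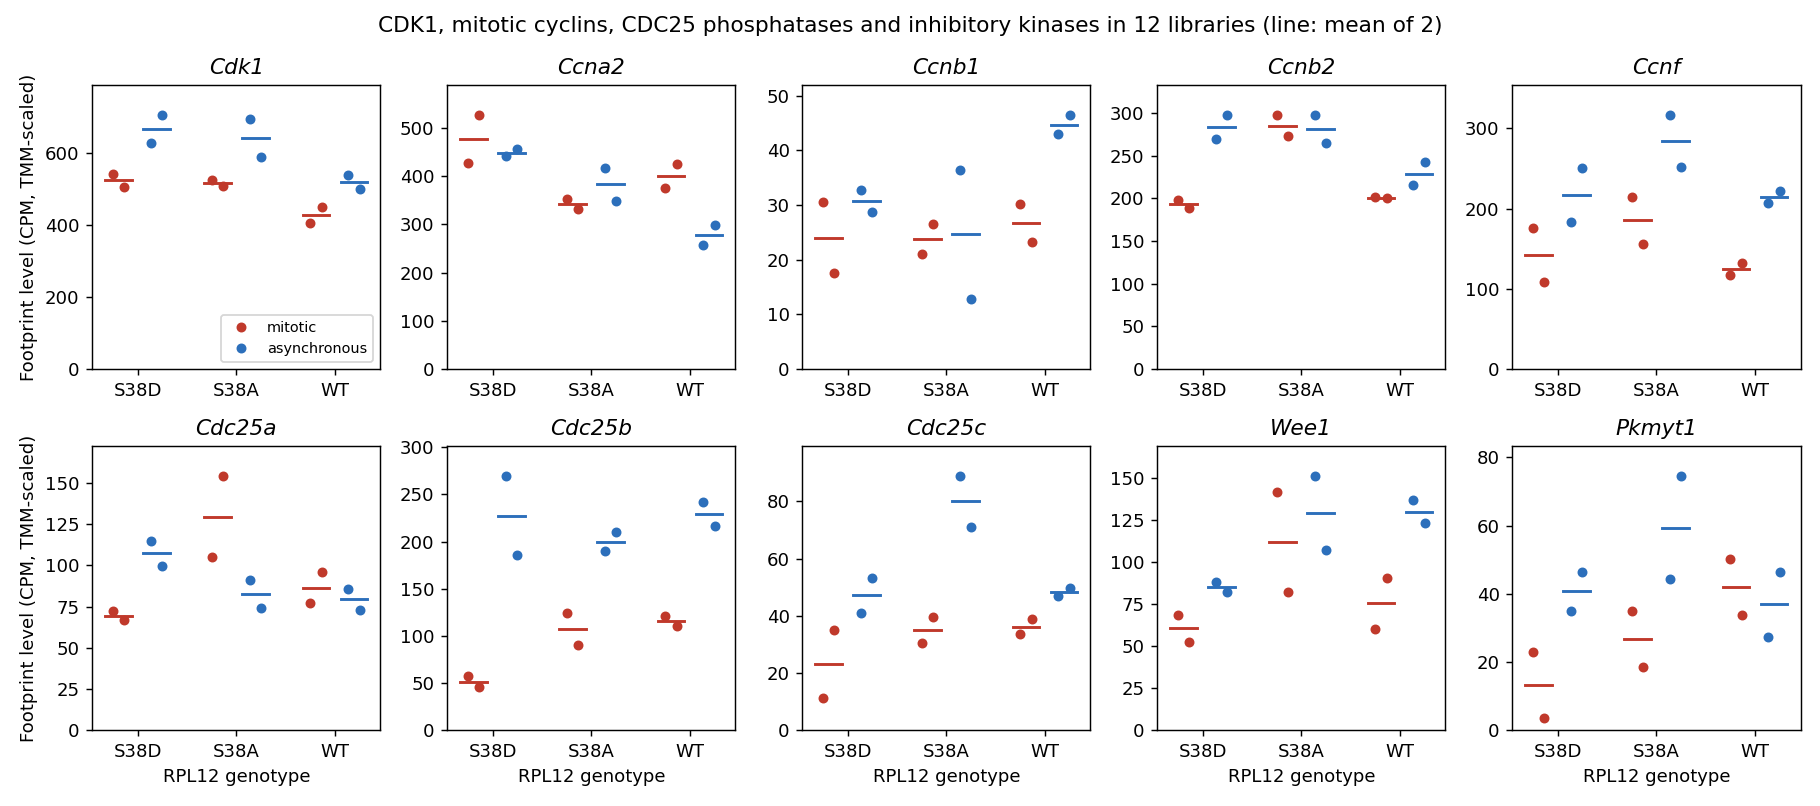
Footprint levels (CPM after TMM scaling, vertical axes from 0) of the 10 genes in 12 libraries by RPL12 genotype (horizontal axes). Points are libraries, red for mitotic and blue for asynchronous cells, and lines are means of 2. The red points of Cdc25b lie below all its blue points, while Ccna2 is lowest in the WT asynchronous libraries, at 258 and 299 CPM.

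The cyclins differed among themselves. Ccnf (ENSMUSG00000072082.6), cyclin F, had 176 and 109 CPM in S38D mitotic, 215 and 156 CPM in S38A mitotic and 117 and 132 CPM in WT mitotic libraries. Asynchronous libraries had 183 and 250 CPM in S38D, 316 and 252 CPM in S38A and 207 and 222 CPM in WT cells. Mitotic libraries were the lower ones in each genotype. Ccnf fell in all 3, with log2 differences of -0.61 ± 0.23 in S38D (adjusted p = 0.0417), -0.61 ± 0.20 in S38A (adjusted p = 0.0203) and -0.78 ± 0.24 in WT cells (SE, adjusted p = 0.0142, edgeR), and the average was -0.66 ± 0.13 (SE, adjusted p = 4e-05, edgeR). Each single-genotype call was lost under DESeq2 and without some libraries. These were S38D asynchronous replicate 2 and S38D mitotic replicate 2 in S38D cells (value down to -0.29), S38A asynchronous replicate 1 and S38A mitotic replicate 2 in S38A cells (down to -0.40), and WT asynchronous replicate 2 and WT mitotic replicate 1 in WT cells (down to -0.70). The S38D call was also lost with DESeq2 size factors, with a mean CPM of at least 10 as the filter, and with only the compared groups fitted, with adjusted p up to 0.565 over all alternatives.

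Ccna2 (ENSMUSG00000027715.9), cyclin A2, passed in WT cells, where it rose. It had 427 and 526 CPM in S38D mitotic libraries, against 441 and 456 CPM in S38D asynchronous ones. S38A cells had 353 and 331 CPM in mitotic libraries, against 417 and 349 CPM in asynchronous ones. WT cells had 376 and 425 CPM in mitotic libraries, against 258 and 299 CPM in asynchronous ones. The states overlapped in both mutants, and in WT cells the mitotic libraries were higher, with a log2 difference of 0.52 ± 0.18 (SE, adjusted p = 0.0277, edgeR). It was the 1 rise among the 10 genes in any genotype, where 9.13% of all genes tested rose in WT cells. It was lost under DESeq2 and without WT asynchronous replicate 1, WT asynchronous replicate 2 or WT mitotic replicate 2, with adjusted p up to 0.281. The average over genotypes was 0.13, with a 95% interval of -0.09 to 0.35 (adjusted p = 0.357, edgeR). RefSeq places Exosc9 over part of the Ccna2 locus and Paqr4 and 1520401A03Rik over part of the Pkmyt1 locus. The pseudogene Gm3550 overlaps the Cdc25c locus. The sources used here do not say whether counting used strand.

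The B-type cyclins were unequal in depth. Ccnb2 (ENSMUSG00000032218.7) had 198 and 189 CPM in S38D mitotic libraries, against 269 and 297 CPM in S38D asynchronous ones. In S38A cells it had 297 and 273 CPM in mitotic libraries, against 297 and 265 CPM in asynchronous ones, and in WT cells 201 and 200 CPM, against 215 and 242 CPM. The mitotic libraries were lower in S38D cells and overlapped the asynchronous ones in S38A cells. It fell in S38D cells, where the log2 difference was -0.54 ± 0.19 (SE, adjusted p = 0.0307, edgeR), and did not pass in S38A (0.01, adjusted p = 0.968), in WT (-0.20, adjusted p = 0.557) or on average (-0.23, 95% interval -0.46 to 0.01, adjusted p = 0.115, edgeR). The S38D call was lost under DESeq2, with only the compared groups fitted, and without S38D asynchronous replicate 2, S38D mitotic replicate 1 or S38D mitotic replicate 2, with adjusted p up to 0.202.

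Ccnb1 (ENSMUSG00000041431.16) had 4 to 16 reads in a library and reached the level of the filter in 6 of 12. It had 17.5 to 30.5 CPM in the mitotic libraries (median 24.9) and 12.9 to 46.4 CPM in the asynchronous ones (median 34.7), and the states overlapped. The averaged log2 difference was -0.43, with a 95% interval of -1.0 to 0.13 (adjusted p = 0.223, edgeR), so no change was detectable at this depth. RefSeq lists a pseudogene for each B-type cyclin gene here, Ccnb1-ps and Ccnb2-ps, and alignments to more than 1 place, which the tables leave uncounted, made up 62.3 to 73.0% of themselves and the uniquely aligned reads together. How many such reads belong to Ccnb1 or Ccnb2 is not known, so their levels are uncertain. Together with Ccna2 the B-type cyclins had 172 to 287 reads in a mitotic library and 132 to 362 in an asynchronous one. Ccna2 took 65.1 and 71.8% of these in S38D mitotic, 52.6 and 52.5% in S38A mitotic and 61.9 and 65.6% in WT mitotic libraries. In asynchronous libraries it took 59.4 and 58.4% in S38D, 55.6 and 55.7% in S38A and 50 and 50.8% in WT cells. The observed share was higher in mitotic than in asynchronous libraries of S38D and WT cells and lower in S38A cells. In S38A cells the exact 95% binomial intervals of the states overlapped, with 46.0 to 59.0% in mitotic and 48.4 to 62.8% in asynchronous replicate 2. Those of replicate 1 overlapped in S38D and WT cells too, while mitotic replicate 2 lay above there. These shares were not tested.

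Counted by genotype, 4 of the 10 genes fell in S38D cells (Cdc25b, Pkmyt1, Ccnf and Ccnb2), 3 in S38A cells (Cdc25b, Cdc25c and Ccnf) and 2 in WT cells (Cdc25b and Ccnf). Of all genes tested, 10.9% fell in S38D, 9.59% in S38A and 9.26% in WT cells. The median log2 difference of the 10 genes was -0.58 in S38D, -0.26 in S38A and -0.34 in WT cells, beside -0.029, -0.010 and -0.004 for all genes tested. Uniquely aligned reads outside counted features were 25.6 to 34.6% in mitotic libraries and 18.0 to 25.8% in asynchronous ones. Alignments to more than 1 place were 65.8 to 73.0% in mitotic and 62.3 to 68.3% in asynchronous libraries. Depth also differed by state in S38D cells, with 274071 and 298198 coding reads in mitotic and 505500 and 465584 in asynchronous libraries. In S38A cells these were 440741 and 386376 against 397435 and 323093. In WT cells they were 300205 and 393141 against 258354 and 302808. The part of any of these measures in the changes was not tested.

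Whether the change of state differed between genotypes was tested for each gene, and 0 of 10 passed in any of the 3 contrasts, where 0.239% of all genes tested passed for S38D minus S38A, 0.0598% for S38D minus WT and 0.448% for S38A minus WT. At an unadjusted p under 0.05 these contrasts held 3, 2 and 1 of the 10 genes (edgeR). The shares above are at the adjusted threshold, and those of all genes at the unadjusted one were not counted. DESeq2 passed 0 of the 10 in each S38D contrast, and for S38A minus WT it gave an adjusted p for 2 of the 10 genes, of which 0 passed. In the S38D contrasts the smallest p-values were those of CDC25 genes. For S38D minus S38A, the difference of the mitotic change was -1.26 ± 0.37 for Cdc25b (95% interval -2.00 to -0.52, adjusted p = 0.107) and -1.24 ± 0.38 for Cdc25a (SE, 95% interval -2.00 to -0.49, adjusted p = 0.124, edgeR). For Cdc25b the value was -1.50 without S38D asynchronous replicate 2 (adjusted p = 0.0304) and -0.98 without S38D asynchronous replicate 1 (adjusted p = 0.290), and it did not pass under any other alternative. For S38D minus WT it was -1.17 ± 0.38 for Cdc25b (SE, adjusted p = 0.410, edgeR), and for S38A minus WT it was -0.70 ± 0.24 for Ccna2 (SE, adjusted p = 0.264, edgeR). For Cdk1 the 3 values lay between -0.07 and -0.03, with 95% intervals reaching from -0.50 to 0.39.

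The second question was how the genotypes differed in these genes within a state. The number of clones per genotype is not given, so the substitution at position 38 and the clone cannot be told apart. In mitotic cells S38D differed from S38A in 5 of the 10 genes, where 12.9% of all genes tested differed. Cdc25a, Cdc25b, Wee1 and Ccnb2 were lower in S38D and Ccna2 was higher. Cdc25b differed by -1.07 ± 0.32 on the log2 scale (adjusted p = 0.0149), Wee1 by -0.91 ± 0.31 (adjusted p = 0.0358) and Cdc25a by -0.88 ± 0.28 (SE, adjusted p = 0.0249, edgeR). Ccnb2 differed by -0.56 ± 0.19 (adjusted p = 0.0429) and Ccna2 by 0.48 ± 0.16 (SE, adjusted p = 0.0382, edgeR). In each of these 5 genes the 2 S38D mitotic libraries lay to one side of the 2 S38A mitotic ones. The genes were called on these same libraries, so this separation is no further support. The median difference of the 10 genes was -0.55, beside -0.028 for all genes tested.

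These calls were close to the threshold. DESeq2 called 0 of the 5, and without S38D mitotic replicate 2 none of the 10 genes passed. Without S38D mitotic replicate 1 the 1 gene that passed was Ccna2, without S38A mitotic replicate 1 it was Cdc25a, and without S38A mitotic replicate 2 they were Cdc25b and Wee1. Ccnb2 was also lost with DESeq2 size factors, with either other filter and with the replicate block, and Ccna2 with library totals, with no filter and with the replicate block. The direction of each of the 5 was kept, with log2 differences of -1.24 to -0.81 for Cdc25b, -1.21 to -0.44 for Wee1, -1.14 to -0.57 for Cdc25a, -0.59 to -0.49 for Ccnb2 and 0.34 to 0.64 for Ccna2 over all alternatives. Cdk1 did not differ detectably between the mutants, with a log2 difference of 0.02 and a 95% interval of -0.29 to 0.32.

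Against WT, mitotic S38D cells differed in 1 of the 10 genes, where 1.82% of all genes tested differed. This was Cdc25b, at 51.4 ± 8.22 CPM in mitotic S38D cells and 116 ± 6.58 CPM in mitotic WT cells (SD, n = 2 each). The log2 difference was -1.17 ± 0.32 (SE, adjusted p = 0.0332, edgeR), a 2.25-fold lower level. This comparison and that with S38A share the S38D libraries. The call was lost on leaving out any 1 of the 4 libraries, with log2 differences that stayed between -1.29 and -0.99 over all alternatives and adjusted p up to 0.394, and DESeq2 gave no adjusted p. Pkmyt1 stood at -1.65 ± 0.59 (SE, adjusted p = 0.161, edgeR) on few reads. At an unadjusted p under 0.05, 2 of the 10 genes differed, and the share of all genes at that threshold was not counted.

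Mitotic S38A cells differed from WT in 0 of the 10 genes by edgeR, where 13.2% of all genes tested differed. DESeq2 called 0 of the 7 genes for which it gave an adjusted p. At an unadjusted p under 0.05 there were 4 genes, Ccnb2, Ccnf, Cdc25a and Wee1, all with higher levels in S38A. How many of all genes tested reach that threshold was not counted. Ccnb2 had 285 ± 16.7 CPM in mitotic S38A cells and 200 ± 1.20 CPM in mitotic WT cells (SD, n = 2 each), a log2 difference of 0.51 ± 0.18 (SE, adjusted p = 0.0531, edgeR). It passed with a mean CPM of at least 10 as the filter (adjusted p = 0.0421) and with only the compared groups fitted (adjusted p = 0.0261), and leaving out 1 library gave adjusted p of 0.104 to 0.265. Ccnf differed by 0.57 ± 0.23 (SE, adjusted p = 0.0888, edgeR) and passed with only the compared groups fitted (adjusted p = 0.0429), with values of 0.32 to 0.78 and adjusted p of 0.0556 to 0.594 when 1 library was left out.

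**Figure D4:**
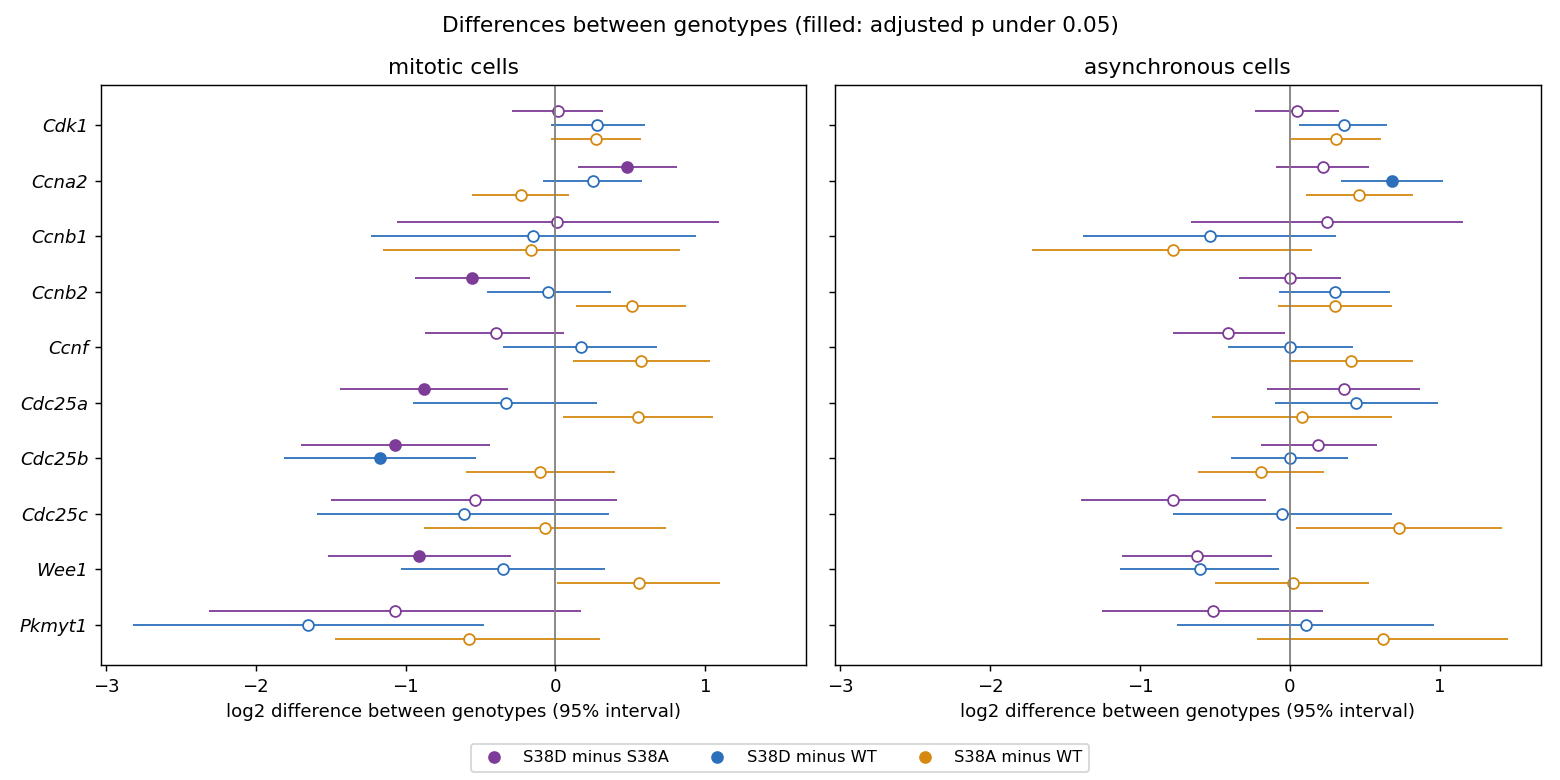
Log2 differences between genotypes (horizontal axis, with 95% intervals) for the 10 genes in mitotic (left) and asynchronous cells (right). Colours are the 3 pairs of genotypes, and filled points passed at an adjusted p under 0.05. In mitotic cells 5 filled points are of S38D minus S38A and 1, Cdc25b, is of S38D minus WT, and in asynchronous cells the 1 filled point is Ccna2 in S38D minus WT.

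In asynchronous cells S38D differed from WT in 1 of the 10, where 3.33% of all genes tested differed. This was Ccna2, at 449 ± 10.7 CPM in S38D cells and 278 ± 28.7 CPM in WT cells (SD, n = 2 each), a log2 difference of 0.68 ± 0.17 (SE, adjusted p = 0.00909, edgeR) and a 1.61-fold higher level. This comparison shares the WT asynchronous libraries with the rise of Ccna2 in WT cells. The call was lost without WT asynchronous replicate 1 and with only the compared groups fitted, with adjusted p up to 0.112. S38D differed from S38A in 0 of the 10, where 8.71% of all genes tested differed, and S38A from WT in 0 of the 10, where 9.32% differed (edgeR). DESeq2 gave an adjusted p for 5 genes in the first of these, not for Cdc25c or Wee1, and for 7 in the second, not for Cdc25c, and called 0 of them. At an unadjusted p under 0.05, 3 genes were found in each of these 2 comparisons, and between S38D and WT they were Ccna2, Cdk1 (0.36) and Wee1 (-0.60). For S38D minus S38A they were Cdc25c (-0.78), Wee1 (-0.62) and Ccnf (-0.41), all with lower levels in S38D. For S38A minus WT they were Cdc25c (0.73), Ccna2 (0.46) and Cdk1 (0.31), all with higher levels in S38A. Shares of all genes tested at the unadjusted threshold were not counted here either.

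Cdc25b was called lower in S38D than in S38A and WT mitotic cells, and both calls were lost under some alternatives. Its mitotic change did not differ detectably for S38D minus S38A (adjusted p = 0.107) or S38D minus WT (adjusted p = 0.410, edgeR). A genotype difference confined to mitotic cells was therefore not shown. In asynchronous cells Cdc25b had no detectable difference between genotypes. There its group means were 227 ± 58.5 CPM in S38D, 200 ± 14 CPM in S38A and 229 ± 18.9 CPM in WT cells (SD, n = 2 each), and the log2 difference of S38D from WT was 0.00 with a 95% interval of -0.39 to 0.39. Ordered by group mean, the 3 asynchronous groups came first and did not separate from each other. WT mitotic (116 CPM) and S38A mitotic libraries (107 CPM) followed and overlapped, and S38D mitotic libraries (51.4 CPM) came last, below both. For Cdk1 the 2 mutant asynchronous groups came first (666 and 641 CPM) and overlapped. S38D mitotic, WT asynchronous and S38A mitotic libraries formed a middle of 523, 520 and 517 CPM whose neighbours overlapped, and WT mitotic libraries came last at 428 CPM. For Ccna2 the order ran from S38D mitotic (477 CPM) and S38D asynchronous (449 CPM), which overlapped, through WT mitotic, S38A asynchronous and S38A mitotic to WT asynchronous libraries (278 CPM), which lay apart from the group above.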

How the data were processed

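For each of 12 libraries the authors deposited a table of raw counts by Ensembl gene ID. Tools named, without roles, per the submitters' processing notes are HTSeq 0.9.1, STAR 2.5.3a, Bowtie2 2.3.2, bcl2fastq 2.16.0.10 and DESeq2 1.18.1, with build mm10. Only file names mention coding sequence, and the sources used here give neither strand use nor read collapsing. The 5 summary rows that name no gene were left out of totals. Reads outside features were 18.0 to 34.6% and ambiguous reads 0.524 to 0.677% of uniquely aligned reads. The counts were fitted with edgeR 4.0.16 under R 4.3.3 (TMM, filterByExpr with a minimum count of 10, quasi-likelihood F test, all genes). The model held 6 groups. The averaged change is the state term of a model of genotype plus state, which assumes the same change in each genotype. SE is the log2 difference over the square root of F. Intervals of 95% use the t distribution with the test's degrees of freedom. DESeq2 1.42.0 and other scalings, filters and fits were alternatives. Chi-square per degree of freedom between replicate libraries, which is about 1 for sampling noise alone, differed by group. It was 1.06 in S38D mitotic, 1.30 in S38A mitotic and 1.19 in WT mitotic libraries. In asynchronous libraries it was 1.90 in S38D, 1.30 in S38A and 1.88 in WT cells. The script was tested on simulated data. The 10 genes and all lists were chosen with earlier results of these data known. All 10 genes are named, and all 10 passed the filter, Ccnb1 through 6, Pkmyt1 through 8 and Cdc25c through 11 of 12 libraries. Lists of CDK1 pathway genes and cell type markers, a check of RPL12 and a search for genes with similar patterns, all by symbol, could not be applied, and protein motifs were not searched.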

Additional observations from a re-analysis of the deposited data

How the results depend on the processing

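Of 23 calls of the 10 genes over all comparisons, 6 held under all alternatives run and 0 turned direction. These 6 are the averaged falls of Cdk1, Ccnf, Cdc25b and Cdc25c, under 18 alternatives, and the falls of Cdc25b in S38D and WT cells. The averaged count was 6 genes and 4 to 6 under the alternatives. DESeq2 gave no adjusted p for some of the 10 genes. It called 1 gene each for the change of state in S38D, S38A and WT cells, against 4, 3 and 3 by edgeR, of which 3, 3 and 3 had a DESeq2 adjusted p. For S38D against S38A in mitotic cells it called 0, against 5, all 5 with an adjusted p. For S38D against WT in mitotic cells it called 0 of 4 genes with an adjusted p. The 1 edgeR call, Cdc25b, had no adjusted p and so could not be called there. Over all genes tested DESeq2 called 749, 565 and 608 for these 3 changes of state, against 1435, 1246 and 1231 by edgeR. For S38D against S38A, S38D against WT and S38A against WT it called 361, 58 and 350 in mitotic cells, against 864, 122 and 885, and 152, 66 and 238 in asynchronous cells, against 583, 223 and 624. For the differences of change in the same order it called 3, 2 and 31, against 16, 4 and 30. With only the compared groups fitted, the counts were 2 for the change in S38D cells, 0 for S38D against WT in asynchronous cells, against 1, and 2 for S38A against WT in mitotic cells, against 0. That last count was 1 with a mean CPM of at least 10. For S38D against S38A in mitotic cells it was 3 without a filter. Leaving out 1 library gave 1 to 4, 1 to 3 and 1 to 3 genes for the changes in S38D, S38A and WT cells, in mitotic cells 0 to 2 for S38D against S38A and 0 against WT, 0 to 1 for S38D against WT in asynchronous cells, and 0 to 1 for the mitotic change in S38D minus that in S38A. The cause of these shifts was not tested.

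Whether replicate numbers pair the samples is not known. Deviations of same-numbered libraries correlated above 0.1 in 2 of 15 pairs of groups (-0.311 to 0.114). The lowest value was that of WT and S38D asynchronous libraries. Such correlations cannot tell whether libraries of different groups shared a culture or day. With the replicate block, 3 genes in place of 5 passed for S38D against S38A in mitotic cells, and the other 12 counts were unchanged. Depth limits Ccnb1, Pkmyt1 and Cdc25c most, with as few as 4, 1 and 3 reads in a library.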
